A study of Mus musculus with 2 samples.

Results

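The 10 genes described here encode components of the actin cytoskeleton, or are known targets of serum response factor (SRF), the transcription factor itself included. They were chosen by name: Actb, Actg1, Acta2, Tpm1, Tagln, Myl9, Flna, Vcl, Zyx and Srf, out of 21938 protein-coding genes in GENCODE on mm10. Every Etv4 and Etv5 region that lay inside one of these genes or within 50 kb of it was taken, which gave 39 of the 13636 Etv4 regions and 17 of the 8297 Etv5 regions. The regions came from ChIP-seq, in which the DNA crosslinked to a protein is recovered with an antibody, sequenced and searched for places where reads pile up. One library was made with a rabbit polyclonal antibody to Etv4 and the other with a mouse monoclonal antibody to Etv5. Both used EpRas cells, a line of mouse mammary gland epithelial cells (EpH4) transformed with oncogenic H-Ras, grown in 4% fetal bovine serum. TGF-β3 had been added at 1 ng/ml, 1.5 h before the cells were fixed. The cell line, the Ras transformation and the treatment were therefore common to both lists, and neither untreated cells, the parental line nor a control library was analysed here. With 1 library per antibody the data held no replicates, so the lists are set side by side without a test. The lists gave positions and a number for each region but no read count, so the depth is unknown, a gene without a region is only a gene for which none was listed, and the mammary epithelial identity of the cells could not be checked against marker genes.

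Etv4 and Etv5 are ETS family transcription factors, which recognise DNA with a GGAA core. SRF binds as a dimer to the CArG box, a short A/T-rich sequence flanked by CC and GG, and works with partners of different families. The myocardin-related transcription factors Mrtfa and Mrtfb are held by monomeric actin and are released when actin is assembled into filaments, while myocardin itself (Myocd), a partner in heart and smooth muscle, is nuclear throughout. Their SRF targets are rich in genes for actin, contractile proteins and focal adhesions. Ternary complex factors (Elk1, Elk3 and Elk4) are themselves ETS proteins, answer to MAP kinases downstream of Ras and bind beside SRF at many immediate early genes.

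Sequence stretches from these loci are shown because the binding sequences of SRF and of ETS, AP-1 and RUNX factors lie in or beside the regions at some of the genes and outside any region at others. They are from GRCm38 (mm10), written 5′ to 3′ on the strand of the gene. Capitals mark matches on either strand to a CArG box, to the ETS patterns CCGGAAGT or CAGGAAGT, to the AP-1 patterns TGACTCA or TGAGTCA, or to the RUNX patterns TGTGGTT or TGTGGTC. The 10-base runs in capitals are CArG boxes, those of 8 bases are ETS patterns, and those of 7 bases are AP-1 or RUNX patterns. Only 10-base runs with nothing but A or T between CC and GG were counted as CArG boxes. Variants with another base there were not counted. At Actb, CArG boxes lay in Etv4 regions before the start, in intron 1, upstream and, 5195 bp from the start, beyond the 3′ end. All but the last are in the stretches that follow.
Actb, before the gene start, in an Etv4 region (chr5:142906768-142906797, minus strand): ccgaaagttgCCTTTTATGGctcgagtggc
Actb, intron 1, in an Etv4 and an Etv5 region (chr5:142905838-142905867, minus strand): ccagcgtttgCCTTTTATGGtaataatgcg
Actb, intron 1, in the same Etv4 and Etv5 regions (chr5:142905751-142905778, minus strand): ccgcggcttgCCGGAAGTgggcagggcg
Actb, upstream, in an Etv4 region (chr5:142912858-142913053, minus strand): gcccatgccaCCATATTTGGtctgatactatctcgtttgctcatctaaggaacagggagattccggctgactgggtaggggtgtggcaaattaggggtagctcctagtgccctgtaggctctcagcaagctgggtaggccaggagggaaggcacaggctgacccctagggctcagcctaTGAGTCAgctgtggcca
Actb, farther upstream, in an Etv4 and an Etv5 region (chr5:142920725-142920996, minus strand): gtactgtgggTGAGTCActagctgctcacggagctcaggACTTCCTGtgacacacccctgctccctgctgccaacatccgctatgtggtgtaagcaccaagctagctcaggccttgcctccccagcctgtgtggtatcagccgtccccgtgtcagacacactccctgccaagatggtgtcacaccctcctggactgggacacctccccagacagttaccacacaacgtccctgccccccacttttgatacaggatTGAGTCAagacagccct
Actb, farthest upstream, in an Etv4 region (chr5:142929177-142929206, minus strand): gcgctccttgCCTTTTATGGacgactcgtg
Read on the strand of the gene, the box before the Actb start, the box in intron 1 and the box farthest upstream had the same 10 bases.

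At the other members with a listed region near the start, the stretches show where each kind of pattern fell.
Actg1, before the gene start, beside the edge of an Etv4 region (chr11:120348566-120348595, minus strand): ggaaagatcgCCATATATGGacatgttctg
Actg1, upstream, across the gap between an Etv4 and an Etv5 region (chr11:120350126-120350210, minus strand): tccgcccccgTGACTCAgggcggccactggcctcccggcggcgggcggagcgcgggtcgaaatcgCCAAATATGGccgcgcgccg
Actg1, farther upstream, in an Etv5 region (chr11:120354059-120354199, minus strand): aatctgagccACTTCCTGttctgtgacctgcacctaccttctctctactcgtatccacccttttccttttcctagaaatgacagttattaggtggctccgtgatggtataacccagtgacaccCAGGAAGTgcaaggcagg
Tpm1, downstream, in an Etv4 and an Etv5 region (chr9:66990142-66990429, minus strand): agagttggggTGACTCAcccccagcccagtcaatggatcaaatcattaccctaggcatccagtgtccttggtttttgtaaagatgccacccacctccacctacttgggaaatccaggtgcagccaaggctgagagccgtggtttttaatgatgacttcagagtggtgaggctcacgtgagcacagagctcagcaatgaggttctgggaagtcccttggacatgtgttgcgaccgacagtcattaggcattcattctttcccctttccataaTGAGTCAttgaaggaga
Zyx, before the gene start, in an Etv4 and an Etv5 region (chr6:42349396-42349579, plus strand): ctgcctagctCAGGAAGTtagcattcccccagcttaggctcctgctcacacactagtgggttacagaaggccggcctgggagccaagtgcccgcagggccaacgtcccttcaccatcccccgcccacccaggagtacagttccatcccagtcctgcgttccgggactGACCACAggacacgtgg
Vcl, before the gene start, in an Etv4 region (chr14:20929161-20929190, plus strand): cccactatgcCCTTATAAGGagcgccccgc
Vcl, upstream, in an Etv4 region (chr14:20891940-20892211, plus strand): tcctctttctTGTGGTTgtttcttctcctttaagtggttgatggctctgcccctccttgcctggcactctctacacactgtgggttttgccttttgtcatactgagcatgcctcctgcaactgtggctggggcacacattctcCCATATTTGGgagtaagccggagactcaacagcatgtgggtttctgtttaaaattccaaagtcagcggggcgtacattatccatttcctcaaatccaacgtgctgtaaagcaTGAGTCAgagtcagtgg
Another 4 members carried a CArG box just before the gene start without a listed region over it.
Srf, before the gene start (chr17:46556205-46556254, minus strand): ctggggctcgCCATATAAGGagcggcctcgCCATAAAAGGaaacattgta
Myl9, before the gene start (chr2:156775293-156775322, plus strand): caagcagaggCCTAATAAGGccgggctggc
Tagln, before the gene start (chr9:45936151-45936180, minus strand): agggtcctgcCCATAAAAGGtttttcccgg
Flna, before the gene start (chrX:74249899-74249928, minus strand): gcgatttttaCCAATTAAGGctttcttgcc
The Srf stretch holds 2 boxes, and the others hold 1 each. A match is a run of letters and was not tested as a binding site.

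Of the 10 genes, 8 had an Etv4 region in the gene or within 50 kb, compared with 53.4% of all protein-coding genes. For Etv5, 5 had a region (Actb, Actg1, Acta2, Tpm1 and Zyx), compared with 42.7%. An Etv4 region reached into the body of 6 genes (Actb, Actg1, Tpm1, Flna, Vcl and Zyx; 23.0% of all genes), and one lay within 2 kb of the annotated start of 5 of them, Flna being the exception (15.8% of all genes). For Etv5, 3 genes had a region inside (Actb, Tpm1 and Zyx; 14.7% of all genes) and 4 had one within 2 kb of the start (these 3 and Actg1; 8.95%). The median number of regions per member was 4 for Etv4 and 0.5 for Etv5, whereas it was 1 and 0 over all genes. The members are short, with a median length of 9.22 kb against 17.4 kb for all genes. These counts are descriptions of 10 chosen genes, with no test.

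**Figure D1:**
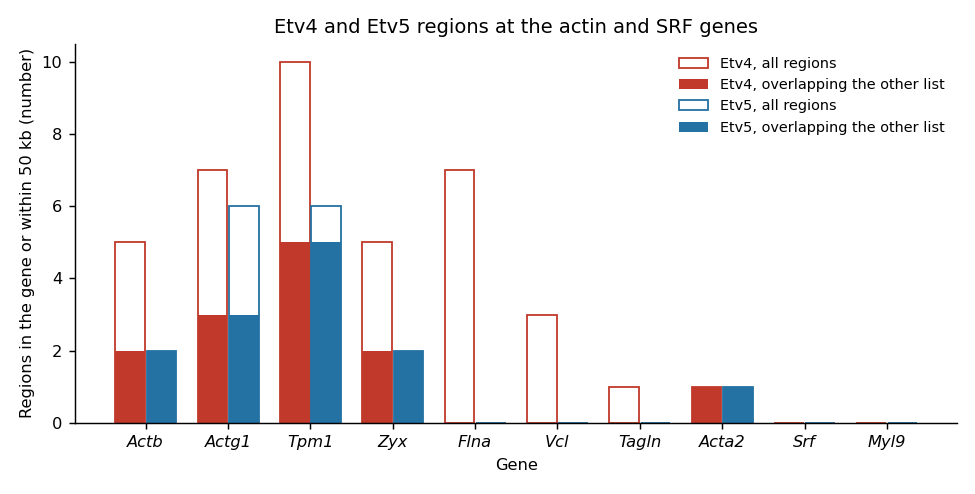
Number of Etv4 (red) and Etv5 (blue) regions in each gene or within 50 kb of it, 1 library per antibody. Filled bars are the regions that overlapped a region of the other list and open bars are all regions: Tpm1 had 10 Etv4 and 6 Etv5 regions, Flna had 7 Etv4 regions and no Etv5 region, and Srf and Myl9 had none.

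**Figure D2:**
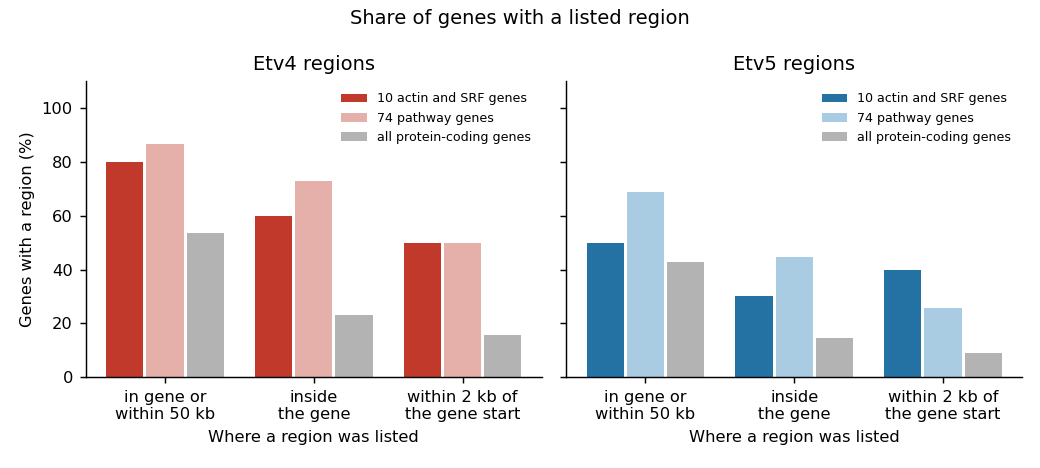
Share of genes (%) with a listed region in the gene or within 50 kb, inside the gene, or within 2 kb of the gene start, for the 10 genes, 74 genes of the actin and SRF pathway, and all 21938 protein-coding genes. In both panels the grey bars of all genes were the lowest of each trio.

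Actb, which encodes cytoplasmic beta-actin, was nearly covered by Etv4 regions. The gene is 3.64 kb long (chr5:142903115-142906754, minus strand), and 95.1% of it lay under 2 Etv4 regions. Only 67 of all protein-coding genes (0.305%), Actb among them, were covered to that extent or more. The median length of all genes is 17.4 kb, and a shorter gene needs fewer bases under regions for the same share. The part of gene length in this rank was not tested. The longer region, chr5:142903600-142907184, measured 3585 bp, spanned the gene start and carried number 319 of 13636. The shorter, chr5:142901330-142903422, measured 2093 bp, carried number 327 and ran from the last 308 bases of the gene into the sequence beyond it. Another 3 Etv4 regions lay upstream, at 5.95, 13.7 and 22.1 kb from the gene start, and measured 380, 1009 and 588 bp. Etv5 had 2 regions, both within Etv4 regions. One of 508 bp lay in intron 1, 588 bp after the start, and covered 14.0% of the gene. The other, of 659 bp, lay 13.9 kb upstream and carried number 1158 of 8297. At the gene itself, the Etv5 region was thus a short stretch within the broad Etv4 region.

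The intron 1 stretch common to both lists held an ETS pattern 986 bp and a CArG box 897 bp after the Actb start. The stretch common to both lists upstream held an ETS pattern at 14196 bp from the start between AP-1 patterns at 13981 and 14226 bp. Of the 11 CArG boxes in the 50-kb window around Actb, 5 lay in Etv4 regions, which made up 7.39% of that window, and 1 lay in an Etv5 region. The box nearest the start was 24 bp upstream of it, inside the Etv4 region and 611 bp from the nearest Etv5 region. The nearest regions outside the 50-kb limit were an Etv4 region at 52.2 kb and an Etv5 region at 53.8 kb, both nearest to Fscn1. Actin genes have many processed copies in the genome. Of all 36-base sequences in Actb, 14.5% are found at more than one place, and the share was 10.7% in the longer Etv4 region.

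Actg1, which encodes cytoplasmic gamma-actin, had 7 Etv4 and 6 Etv5 regions. Of these, 6 Etv4 regions and all 6 Etv5 regions had the Actg1 start as their nearest protein-coding start. The remaining Etv4 region lay 30.2 kb upstream at the start of Faap100. The gene is 2.85 kb long (chr11:120345690-120348542, minus strand). Etv4 regions, 3 in number, reached into it and covered 71.9% of it. Together with Actb this made 2 of the 10 members with at least 70% covered, against 0.438% of all genes. That threshold was set after the values were seen. Both genes are short, and the part of gene length in this count was not tested. The region over the start measured 1328 bp, the region over the 3′ end measured 2046 bp and carried number 230 of 13636, the lowest number at any of the 10 genes, and the region between them measured 569 bp. No Etv5 region reached into the gene. The nearest, of 652 bp, lay 86 bp beyond the 3′ end, wholly under the Etv4 region there. Other Etv5 regions lay 1.65 and 5.18 kb upstream of the start and at 31.7, 32.8 and 37.3 kb downstream of it. Etv4 and Etv5 regions overlapped at 3 places: beyond the 3′ end, and, measured to the Etv4 region, 4.91 kb upstream (336 bp in common) and 32.1 kb downstream of the start (470 bp in common).

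Actg1 was also the member with the most sequence in several copies. Of its 36-base sequences, 60.5% are found elsewhere in the genome, and the share was 74.2% in the 569-bp region, 31.7% in the region over the start and 14.9% in the region at the 3′ end. Without the 569-bp region 52.0% of the gene was covered, which left Actb as the only member with at least 70% covered. The part of repeated sequence in the Etv4 regions over the actin genes was not tested. The CArG box 34 bp before the Actg1 start lay directly beside the edge of the region over the start, with no base between them. Boxes at 507 and 1594 bp upstream lay in the next Etv4 region, which measured 1251 bp. The latter box lay 47 bp from an Etv5 region with an AP-1 pattern 1652 bp from the start. The Etv5 region 5.18 kb upstream held 2 ETS patterns, neither of them in the overlapping Etv4 region, and an AP-1 pattern common to both.

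Acta2, which encodes the alpha-actin of smooth muscle and myofibroblasts, had no region inside the gene or near its start. The gene (chr19:34241090-34255590, minus strand) had a single Etv4 region, of 411 bp, 48.4 kb away and a single Etv5 region, of 490 bp, 48.1 kb away. These lay just inside the limit of 50 kb, overlapped by 106 bp and were 6 and 311 bp from the start of Stambpl1, their nearest protein-coding gene start. The next regions, outside the limit, lay 69.5 and 60.2 kb from Acta2. None of the 13 CArG boxes in the window of Acta2 was in a region. Variant boxes with a base other than A or T inside were not searched for. The cytoplasmic actin genes thus had the highest coverage by Etv4 among the members, at 95.1 and 71.9%, and the smooth muscle actin gene had 0%. That value is also the median over all protein-coding genes, and Tagln, Myl9 and Srf had it too. Acta2 is 14.5 kb long, and the part of gene length in this contrast was not tested.

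**Figure D3:**
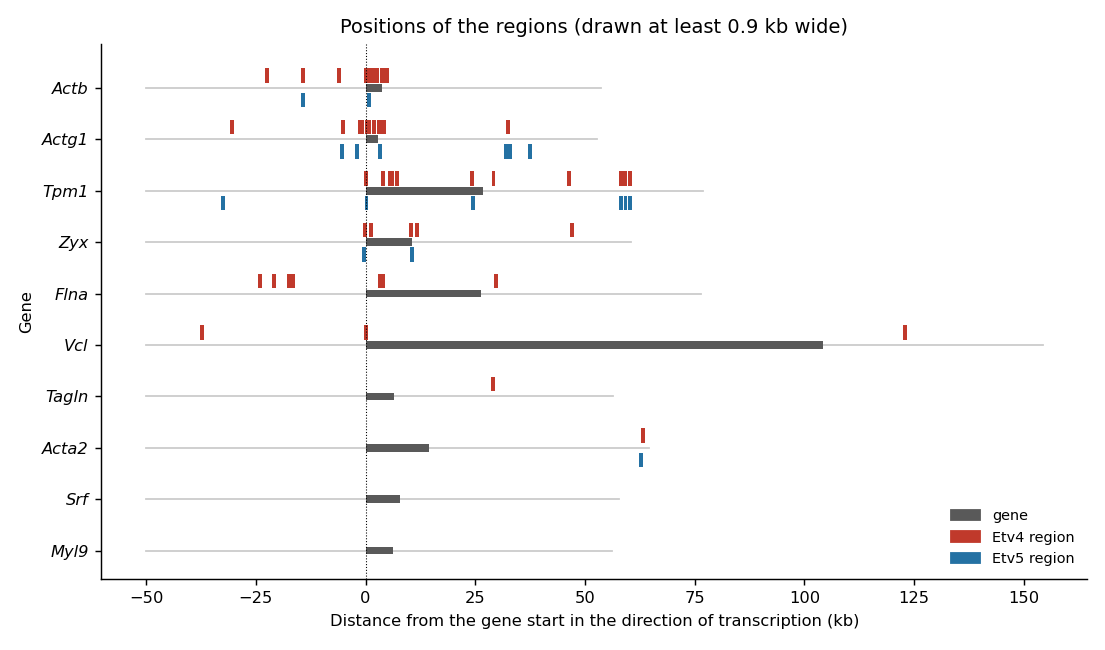
Positions of the Etv4 (red, above the line) and Etv5 (blue, under the line) regions relative to each gene start, in kb in the direction of transcription, with the gene as a dark bar and the 50-kb windows as grey lines. Short regions are drawn wider than they are. Regions of Actb and Actg1 lay over the genes, those of Tpm1 formed groups in the gene and beyond it, and the regions of Acta2 and Tagln lay far downstream.

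Tpm1, which encodes tropomyosin alpha, a protein that lies along actin filaments, had the most regions of the 10 genes. It had 10 Etv4 regions, a number reached by 1.25% of all genes, and 6 Etv5 regions, reached by 1.43%. The gene is 26.8 kb long (chr9:67022590-67049406, minus strand) and has 21 annotated transcripts. In the gene lay 5 Etv4 regions, which covered 13.5% of it, and 2 Etv5 regions, which covered 3.02%. Regions of both lists spanned the gene start, an Etv4 region of 925 bp and an Etv5 region of 574 bp that lay wholly within it. Another 3 Etv4 regions, of 580, 1203 and 556 bp, lay in intron 2 at 3.67, 5.21 and 6.90 kb from the start. The 1203-bp region covered the start of another Tpm1 transcript and the other two lay 1198 and 1201 bp from one. In intron 8 an Etv4 region of 672 bp and an Etv5 region of 301 bp overlapped by 235 bp.

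A second group of regions lay beyond the 3′ end of Tpm1. The 3 Etv4 regions at 31.2, 31.9 and 32.9 kb from the gene each overlapped an Etv5 region, by 302, 487 and 598 bp. Their nearest protein-coding start was that of Lactb, 13166 to 15382 bp away. Each of the 3 pairs held an AP-1 pattern in both regions, and the middle pair held 2, at 58987 and 59248 bp from the Tpm1 start. AP-1 patterns lay within 250 bp of the midpoint in 7 of the 10 Etv4 regions around Tpm1, against 37.4% of the list. For Etv5 they did so in 3 of the 6 regions, against 35.8%. At the 355-bp Etv4 region 19.3 kb from the gene, the pattern lay past the end of the region. Neighbouring regions are not independent, and no test was made. None of the 14 CArG boxes in the Tpm1 window lay in a region, and Etv4 regions made up 5.92% of that window. With so few boxes, nothing is read from this count. The next Etv4 and Etv5 regions lay at 56.2 and 55.2 kb, outside the limit.

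Tagln encodes transgelin (SM22), an actin-binding protein of smooth muscle and fibroblasts, and is a classical SRF target. It had no region inside (chr9:45929619-45936058, minus strand), and its single Etv4 region, of 570 bp, lay 22.3 kb beyond the gene over the start of Rnf214. The nearest Etv5 region was 82.0 kb away. CArG boxes lay 103 bp before and 11 bp after the Tagln start, and the nearest Etv4 region to the former was 28860 bp away.

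Myl9, which encodes a regulatory light chain of myosin in smooth muscle and non-muscle cells, had no region of either list within 50 kb (chr2:156775420-156781658, plus strand). The nearest Etv4 region lay 225 kb away, closest to Dsn1, and the nearest Etv5 region lay 273 kb away, closest to Soga1. A CArG box lay 108 bp before its start. Among Acta2, Tagln and Myl9, which are strongly expressed in smooth muscle, the region closest to a gene body was thus the Etv4 region 22.3 kb from Tagln.

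Flna encodes filamin A, which crosslinks actin filaments and ties them to the membrane. It had 7 Etv4 regions, a number reached by 4.08% of all genes, and no Etv5 region, the nearest of which was 656 kb away. Etv4 regions of 529 and 502 bp lay in the gene (chrX:74223461-74249820, minus strand) at 3.61 and 2.96 kb from its annotated start and covered 3.91% of it. The 502-bp region contained the start of another Flna transcript, so Flna counted as a gene with an Etv4 region near a start when all its transcripts were used. One region of 933 bp lay 2.92 kb beyond the 3′ end. The remaining 4 lay 16.4 to 23.6 kb upstream and had the start of Rpl10 as their nearest protein-coding start. In 2 of these 4 regions, 90.9 and 87.1% of the 36-base sequences are found at more than one place. The CArG box 89 bp before the Flna start lay 3051 bp from the nearest Etv4 region.

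Vcl encodes vinculin, which links integrin adhesions to actin. It had 3 Etv4 regions and no Etv5 region, the nearest being 65.1 kb away and closest to Plau. One Etv4 region of 595 bp spanned the gene start (chr14:20929398-21033676, plus strand) and held a CArG box 218 bp before it. Since the gene is 104 kb long, this region covered only 0.34% of it. A region of 358 bp lay 37.2 kb upstream and held a CArG box, an AP-1 pattern and a RUNX pattern. The last, of 919 bp, carried number 318 of 13636, one of the lowest around the 10 genes, but lay 18.2 kb beyond Vcl over the start of Ap3m1. Of the 14 CArG boxes in the window of Vcl, 2 lay in Etv4 regions, which made up 0.916% of the window.

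Zyx encodes zyxin, a LIM protein of focal adhesions and stress fibres. It had 5 Etv4 and 2 Etv5 regions, and both Etv5 regions overlapped Etv4 regions. An Etv4 region of 926 bp and an Etv5 region of 831 bp spanned the gene start (chr6:42349630-42360213, plus strand) and had 812 bp in common. The Etv5 region carried number 1121 of 8297, the lowest of the 17 Etv5 regions. The stretch in common held an ETS pattern 217 bp before the start and an AP-1 pattern 77 bp after it. Another Etv4 region, of 598 bp, lay in intron 2, and at the 3′ end of the gene an Etv4 region of 304 bp and an Etv5 region of 317 bp overlapped by 131 bp. Both regions at the 3′ end were late in their lists, with numbers 13373 of 13636 and 7895 of 8297. The remaining 2 Etv4 regions lay beyond the gene, at 0.98 kb and at 36.2 kb, the latter nearest to Tas2r143. Etv4 regions covered 11.0% of Zyx and Etv5 regions 2.74%. None of the 7 CArG boxes in its window lay in a region, and an Etv5 region 53.4 kb away, nearest to Clcn1, was just outside the limit.

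Srf itself had no region of either list within 50 kb (chr17:46548329-46556175, minus strand). The nearest Etv4 region lay 90.1 kb away at Mrpl2 and the nearest Etv5 region 139 kb away at Ppp2r5d. The CArG boxes 40 and 60 bp before its start, in a promoter known to be bound by SRF, were thus 90011 and 89991 bp from the nearest Etv4 region. Repeated sequence made up 0.294% of the gene, the lowest share of the 10 genes.

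**Figure D4:**
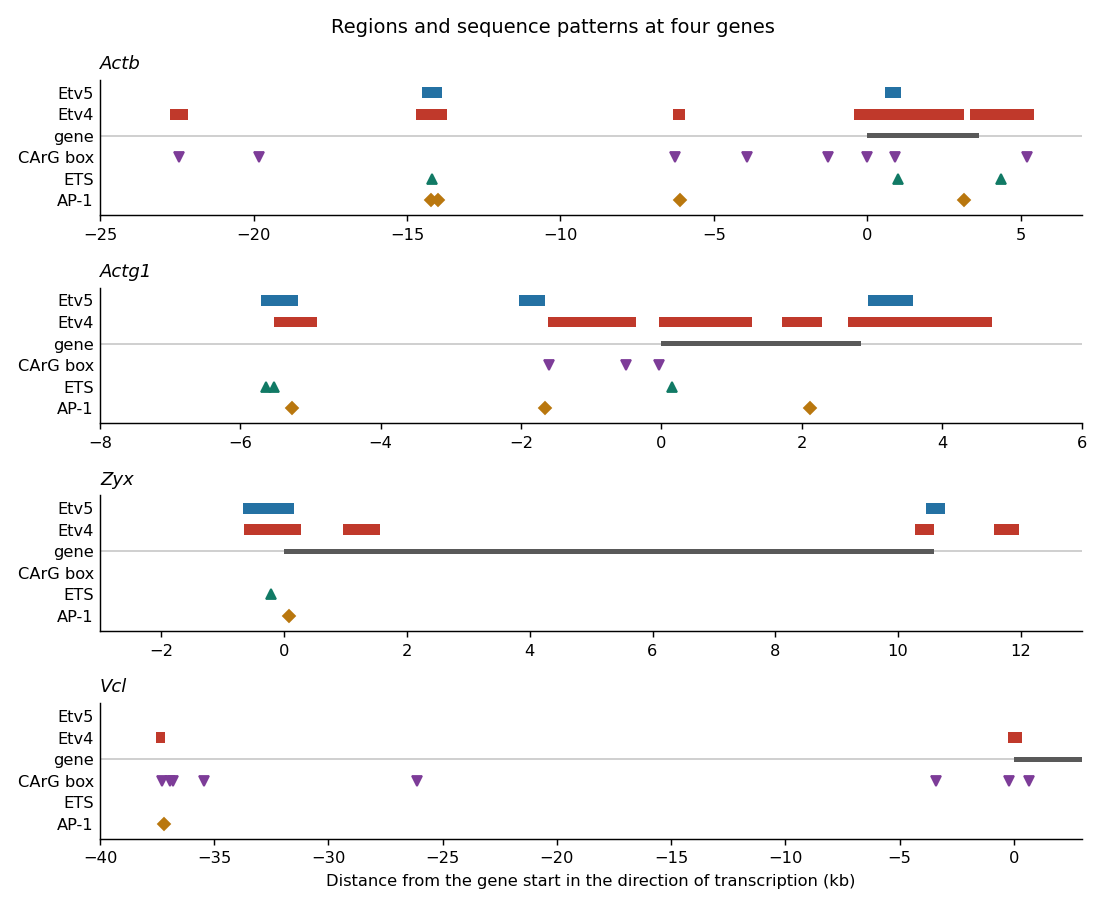
Etv5 regions, Etv4 regions, the gene, CArG boxes anywhere in the plotted stretch, and the ETS and AP-1 patterns found inside regions, for Actb, Actg1, Zyx and Vcl, against the distance from the gene start in kb (Vcl and its window are cut off on the right). At Actb 5 of the boxes lay in Etv4 regions, at Zyx no box was present in the plotted stretch, and at Vcl no Etv5 region was listed.

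The lists overlapped at 5 genes within 50 kb (Actb, Actg1, Acta2, Tpm1 and Zyx), compared with 29.5% of all genes, and an Etv4 region that overlapped an Etv5 region lay within 2 kb of the start at 3 of them (Actb, Tpm1 and Zyx), compared with 4.74%. Of the 39 Etv4 regions, 13 overlapped an Etv5 region, a share of 33.3% (exact 95% binomial interval 19.1 to 50.2%) against 37.8% of the whole list. Of the 17 Etv5 regions, 13 overlapped an Etv4 region, a share of 76.5% (interval 50.1 to 93.2%) against 63.2%. Both intervals held the share of the whole list. Such intervals cover counting error only and treat neighbouring regions as independent, which they are not. Overlapping Etv4 regions were longer than the others, with medians of 879 bp and 575 bp, as they were in the whole list (728 and 526 bp). The 4 Etv5 regions that overlapped no Etv4 region were 3 around Actg1 and 1 upstream of Tpm1, and none of the 4 was in the first 50% of the list by number, whereas 8 of the 13 overlapping ones were. In the whole Etv5 list, too, the first 50% by number held fewer of the non-overlapping regions (824 of 3057) than of the overlapping ones (3324 of 5240).

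By the midpoint of each region, 21 of the 39 Etv4 regions (53.8%, interval 37.2 to 69.9%) lay within 2 kb of an annotated transcript start, compared with 36.5% of the list. Only 1 lay in an intron beyond that distance (2.56%, interval 0.0649 to 13.5%), compared with 29.7%. Neither of these intervals held the share of the list. The regions were taken for lying in or near 10 mostly short genes, whereas the list also holds distal regions and the introns of long genes, so these shares describe the choice of regions as well and nothing is read from the difference. Exons held 2 regions (5.13% against 2.6%) and intergenic sequence held 15 (38.5% against 31.2%). For Etv5, 6 regions lay near a start (35.3%, interval 14.2 to 61.7%, against 33.0%). Introns held 2 (11.8%, interval 1.46 to 36.4%, against 30.9%) and intergenic sequence held 9 (52.9%, interval 27.8 to 77.0%, against 34.0%). Each of these Etv5 intervals held the share of the list. The member had the nearest protein-coding start for 26 of the 39 Etv4 regions and 13 of the 17 Etv5 regions. The others were nearer to a neighbour such as Lactb, Rpl10 or Stambpl1. The median region lengths, 593 bp for Etv4 and 508 bp for Etv5, were close to those of the whole lists, 589 and 532 bp. By region number, whose criterion is not stated, 7 of the 39 Etv4 regions (17.9%, interval 7.54 to 33.5%) and 0 of the 17 Etv5 regions (interval up to 19.5%) fell in the first 10% of their list. Mostly repeated sequence (over 50% of the 36-base sequences) was present in 3 of the 39 Etv4 regions (1368 of 13630 in the nuclear list) and in 0 of the 17 Etv5 regions (1119 of 8289).

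The sequence in 500 bp around the midpoint of the regions was searched for the patterns given above. ETS patterns were present in 4 of the 39 Etv4 regions (10.3%), as in 10.2% of the whole list, and in 4 of the 17 Etv5 regions (23.5%, interval 6.81 to 49.9%), compared with 7.93%. AP-1 patterns were present in 13 Etv4 regions (33.3%, against 37.4%) and in 6 Etv5 regions (35.3%, against 35.8%). RUNX patterns were present in 8 Etv4 regions (20.5%, against 24.7%) and in 4 Etv5 regions (23.5%, against 23.9%). CArG boxes were present in 3 Etv4 regions (7.69%, interval 1.62 to 20.9%, against 2.6%) and in 2 Etv5 regions (11.8%, interval 1.46 to 36.4%, against 2.61%). The 500-bp window reaches past the ends of shorter regions, and 1 of these 2 boxes, upstream of Actg1, lay 47 bp outside its Etv5 region. All 8 intervals held the share of the list. The 4 Etv5 regions with an ETS pattern were the 2 of Actb, the start of Zyx and the region 5.18 kb upstream of Actg1. When the whole region was searched, CArG boxes were found in 7 Etv4 regions (17.9%, interval 7.54 to 33.5%, against 3.35% of the list), of which 4 were at Actb, 1 at Actg1 and 2 at Vcl. This interval did not hold the share of the list. However, the genes were chosen as SRF targets, for which CArG boxes are known, so the share is a description and not independent evidence. The 7 regions also came from 3 genes, and regions of a gene share their locus. They also included the 3585-bp and 2093-bp regions of Actb, far longer than the median Etv4 region, and the part of region length in this count was not tested.

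**Figure D5:**
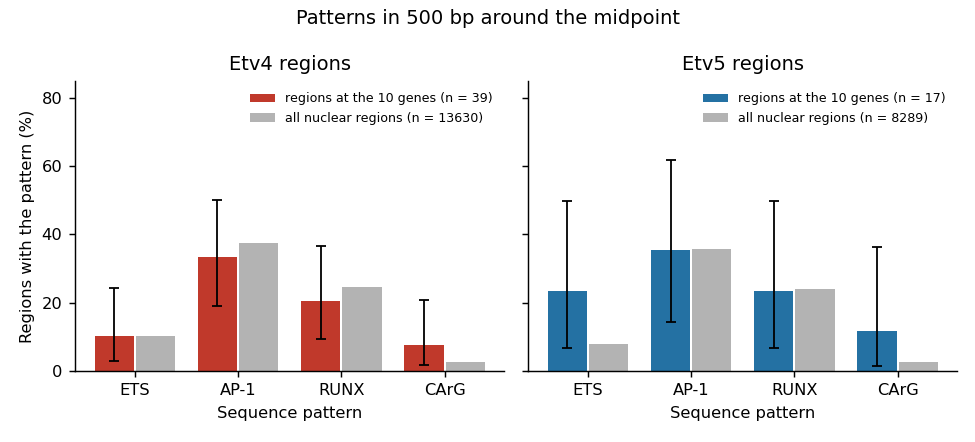
Share of regions (%) with an ETS, AP-1, RUNX or CArG pattern in 500 bp around the midpoint, for the regions at the 10 genes and for all nuclear regions of the list (grey). Black bars are exact 95% binomial intervals, and each of them spans the height of its grey bar.

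The windows of the 10 genes, 1210 kb in all, held 93 CArG boxes. Of these, 9 (9.68%) lay in Etv4 regions, which made up 2.61% of the windows, and 1 (1.08%) lay in an Etv5 region, with 0.721% of the windows. All 9 were at Actb (5), Actg1 (2) and Vcl (2). From 250 bp before to 50 bp after the gene start, 7 of the 10 members had a box (Actb, Actg1, Tagln, Myl9, Flna, Vcl and Srf), compared with 324 of the 21938 protein-coding genes (1.48%). Variant boxes were not searched for, so a member outside this count may still carry one. These genes are known SRF targets, and the boxes are a property of their sequence and not of the libraries. The box lay in an Etv4 region at 2 of the 7 (Actb and Vcl) and in an Etv5 region at none. Among the 324 genes with such a box, it lay in an Etv4 region at 35 (10.8%, interval 7.64 to 14.7%) and in an Etv5 region at 14 (4.32%, interval 2.38 to 7.14%). An Etv4 region was present within 2 kb of the start at 53 of the 324 (16.4%, interval 12.5 to 20.8%), as at 15.8% of all genes, and an Etv5 region at 34 (10.5%, interval 7.38 to 14.4%), as at 8.95%. An ETS pattern in the same stretch was present at Zyx only (7.86% of all genes), as was a RUNX pattern (8.68%), and an AP-1 pattern at none of the 10 (4.59%).

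The wider pathway was described with a list of 74 other genes, among them those of actin dynamics, contraction, focal adhesions and SRF partners. An Etv4 region was present in or within 50 kb of 64 of them (86.5%), inside 54 (73.0%) and within 2 kb of the start of 37 (50.0%). For Etv5 these numbers were 51 (68.9%), 33 (44.6%) and 19 (25.7%). All of these shares were above those of all genes, where the Etv4 shares were 53.4, 23.0 and 15.8% and the Etv5 shares 42.7, 14.7 and 8.95%. The 74 genes are longer, with a median of 41.4 kb against 17.4 kb, and a longer gene offers more sequence inside it and in its window. The part of gene length in these shares was not tested. The 17 focal adhesion genes had the highest medians of the groups, 6 Etv4 and 3 Etv5 regions per gene, and 16 and 14 of them had a region. Of the 21 genes for crosslinking and contraction, 20 had an Etv4 region and 14 an Etv5 region, of the 20 for actin dynamics 15 and 13, and of the 6 SRF partners 4 and 3.

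Overlapping regions of both lists lay within 2 kb of the start at 14 of the 74 genes (18.9%), compared with 4.74% of all genes. In actin dynamics these were Actr3, a subunit of the Arp2/3 complex, and the actin-severing proteins Dstn and Cfl1. In crosslinking and contraction they were the crosslinkers Fscn1, Flnc and Actn1, the actin-binding Cald1, the non-muscle myosin heavy chain Myh9 and the myosin light chain Myl12a. The focal adhesion genes were the LIM protein genes Fblim1, Tes and Pdlim7. Of the SRF partners, Mrtfa was in the set. At Fblim1 an Etv4 region of 955 bp and an Etv5 region of 726 bp, number 408 of 8297, both spanned the start. At Myh9 the Etv4 region of 869 bp and the Etv5 region of 1367 bp did so too. Myh9, 81.6 kb long, had 20 Etv4 and 12 Etv5 regions in the gene or within 50 kb, compared with 10 and 6 at Tpm1, which is 26.8 kb long. The part of gene length in this difference was not tested.

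The SRF partners ranged from 0 to 7 Etv4 regions. Mrtfa, 178 kb long, had 7 Etv4 and 4 Etv5 regions, and the overlapping pair near its start measured 1585 and 1481 bp, with numbers 736 of 13636 and 416 of 8297. It lay 1204 bp from the start for Etv4 and 1315 bp for Etv5, and a second Etv5 region of 360 bp spanned the start. Mrtfb had 2 Etv4 regions and 1 Etv5 region, and Myocd, the muscle member, had none. Of the ternary complex factors, Elk3, 63.7 kb long, had 7 Etv4 and 3 Etv5 regions, Elk4 had 1 Etv4 region and no Etv5 region, and Elk1 had no region in either list. A CArG box near the start was present at 2 of the 74 genes, against 1.48% of all genes. These were Cnn2 and Fermt2, named after their values were seen. The box lay in an Etv4 region at Cnn2 only.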

How the data were processed

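The authors deposited 1 BED list per antibody, with positions in base pairs of mm10, a region number and a deposited score that is 1000 for every region. Regions had been called per library with the one-sample mode of CisGenome (window of 300 bp, p threshold of 0.1), which uses no control library, so copy number, mappability and open chromatin were not corrected for. Bowtie and mm10 are named in the submitters' processing notes. The lists hold no counts, so depth and precision per region are unknown. The files' 2 samples were grouped by antibody as labelled.

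Genes came from GENCODE M21 and sequence from GRCm38. Percentages of genes refer to 21938 nuclear protein-coding genes, and those of patterns to nuclear regions. Overlap meant at least 1 bp in common, and near a start meant an edge within 2 kb. A region was called mostly multicopy when over 50% of its 36-base sequences had another copy in the assembly, and 36 bp is the read length stated for the study's accessibility libraries.

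The members and lists were chosen with earlier results of these data known. Named genes were all 10 members, the pathway genes with an overlapping pair near the start, the SRF partners, and a neighbour where its start was nearest to a region. Cnn2 and Fermt2 were named after their values were seen. Of 75 pathway genes listed, 74 matched (Myl12b did not). A group of 10 signalling genes counts among the 74 and, with 1 gene of it that had an overlapping pair near the start, is not reported here by name. No test was made, since each antibody had 1 library. Functions were tested on simulated data. Alternatives covered distances, the definition of a start, overlap rules, merging, subsets by region number and pattern windows. The software was scipy 1.17.1, pandas 2.3.3, pysam 0.24.0, numpy 2.4.6, matplotlib 3.10.9 and numba 0.67.0, under Python 3.11.15.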

Additional observations from a re-analysis of the deposited data

How the results depend on the processing

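Of 74 values recomputed under other settings, 56 stayed close and 18 moved, where close meant within 1.5 times for a count or a mean covered share, and within the 95% interval for a share of overlapping regions. The 18 were as follows. With a distance of 10 kb, 22 Etv4 and 8 Etv5 regions lay near the 10 genes, with 100 kb 63 and 33, and in the first 50% of each list by number 22 and 8, as fewer or more regions enter by construction. With 5 kb added on either side of the genes, the mean covered share was 11.2% for Etv4, against 19.6% in the gene body, a mean that rests on Actb and Actg1 (the median was 2.13%, and 4 members were at 0). The share of Etv5 regions that overlapped an Etv4 region was 47.1% with an overlap of 50% of both regions and 47.1% with midpoints within 250 bp. The share of the whole Etv5 list under these rules was not computed. The 63.2% given above is for an overlap of 1 bp and cannot be set against these values. In the whole region, ETS patterns were found in 7 of the 39 Etv4 regions (17.9%, against 11.7% of the list). CArG boxes were found there in 7 Etv4 regions (17.9%, against 3.35%) and in 1 of the 17 Etv5 regions (5.88%, against 2.79%). With the strict ETS pattern CCGGAAGT within 500 bp, 0 of the 39 Etv4 regions (against 3.45% of the list) and 1 of the 17 Etv5 regions (against 2.17%) remained. In 200 bp around the midpoint, AP-1 patterns were found in 7 Etv4 and 2 Etv5 regions, RUNX patterns in 3 Etv4 regions and CArG boxes in 1 Etv5 region. Shorter windows and stricter patterns can only lower a count, and other causes were not tested. Leaving out mostly multicopy regions, an alternative chosen after seeing the data, moved none of 12 values, but it took the covered share of Actg1 from 71.9 to 52.0% and so the members with at least 70% covered from 2 to 1. No paired analysis was possible because no antibody had a replicate. Whether a library of greater depth would list regions at Srf, Myl9 or Tagln cannot be told from these lists.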
